A study of Mus musculus with 24 samples.

Results

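Ier2, Ier5, Csrnp1, Klf4, Klf10, Btg2, Midn, Tiparp, Trib1 and Pim1 are rapid response genes, whose transcripts are known to climb within minutes of a growth factor, a stress or neuronal activity. They are named less often in work on memory than Fos, Arc or Egr1. They were chosen by gene symbol, with earlier results of these data known, and make up 10 of the 38355 genes in the count tables. All 10 were present in the 4 comparison tables that the authors deposited and had enough reads to be tested in every comparison.

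Polyadenylated RNA was sequenced from dissected CA1, the hippocampal field whose pyramidal neurons send most of the hippocampal output to the cortex and subiculum. The mice were C57BL/6J animals aged 3 to 5 months. Kat2a encodes a lysine acetyltransferase of coactivator complexes that acetylate histones at promoters. The design asks how the CA1 transcriptome responds to novelty and how loss of Kat2a alters it. Conditional knockout mice (cKO) carried Kat2a fl/fl together with CamKII_alpha-cre+, a Cre recombinase driven by a promoter that is active in forebrain excitatory neurons, so that glia, vessels and most interneurons keep the gene. Control mice carried the same Kat2a fl/fl alleles without the Cre. Mice of each genotype had either 15 min of novelty or none. The 24 libraries comprised 7 cKO novelty, 6 cKO naive, 5 control novelty and 6 control naive libraries. No label ties a library to its own mouse, so a p-value here speaks of the spread among libraries, which could be technical.

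Rapid response genes are transcribed from promoters that are held ready, by transcription factors such as CREB and SRF that are already in the nucleus and are switched on by kinases. No new protein is needed for the first wave of transcription, and the transcripts are short-lived. Many first-wave products are transcription factors, as are Csrnp1, Klf4 and Klf10 here. Others end the response: Btg2 brings a deadenylase complex to messenger RNAs, and midnolin, the product of Midn, carries short-lived nuclear proteins to the proteasome. Tiparp attaches single ADP-ribose units to proteins, Trib1 is a pseudokinase that brings substrates to a ubiquitin ligase, and Pim1 is a kinase that is active as soon as it is made.

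Reads assigned to genes ranged from 10.7 to 35.8 M per library, with 13.0 to 21.2 M in cKO novelty, 19.6 to 24.5 M in cKO naive, 13.9 to 35.8 M in control novelty and 10.7 to 23.4 M in control naive libraries. Kat2a itself measured 31.0 to 38.1 CPM (reads of a gene set against the normalised size of its library) in cKO novelty and 32.1 to 38.9 CPM in cKO naive libraries, against 56.1 to 64.3 CPM in control novelty and 58.6 to 70.4 CPM in control naive libraries. Every cKO library lay below every control library. Markers of CA1 pyramidal neurons were abundant in all libraries, with summed levels of 5180 to 6000 CPM in cKO novelty, 4880 to 6340 CPM in cKO naive, 5950 to 7480 CPM in control novelty and 5920 to 6540 CPM in control naive libraries. None of the 8 CA1 markers was at 0 in all libraries. In bulk tissue, fewer cells of a type and less RNA per cell cannot be told apart.

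A promoter window each of Tiparp, Midn, Ier5 and Btg2 is shown because factors such as CREB and SRF are known to act at promoters of rapid response genes. RefSeq (GRCm38.p6) gave a window from 250 bases before to 50 bases after a start site for 7 of the 10 genes, in 12 windows. Ier2, Klf10 and Trib1 had no entry. Each sequence runs 5′ to 3′ along the gene's own strand, in lower case. Capitals mark matches to the cAMP response element (CRE), the site bound by CREB: TGACGTCA in full, or its core TGACG read on either strand, which in one direction reads CGTCA. The full element contains the core on both strands.
Tiparp, chr3:65528197-65528496, plus strand: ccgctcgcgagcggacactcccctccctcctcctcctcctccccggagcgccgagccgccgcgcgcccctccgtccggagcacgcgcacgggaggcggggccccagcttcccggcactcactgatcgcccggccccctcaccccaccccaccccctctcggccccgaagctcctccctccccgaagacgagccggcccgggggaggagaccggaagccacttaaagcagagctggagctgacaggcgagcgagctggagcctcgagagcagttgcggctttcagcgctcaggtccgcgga
Midn, chr10:80148022-80148321, plus strand: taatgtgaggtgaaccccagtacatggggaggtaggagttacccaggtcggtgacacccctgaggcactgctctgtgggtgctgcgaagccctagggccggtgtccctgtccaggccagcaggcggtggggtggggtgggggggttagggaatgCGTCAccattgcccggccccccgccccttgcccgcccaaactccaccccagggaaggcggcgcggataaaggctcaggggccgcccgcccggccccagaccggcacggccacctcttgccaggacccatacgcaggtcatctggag
Ier5, chr1:155099587-155099886, minus strand: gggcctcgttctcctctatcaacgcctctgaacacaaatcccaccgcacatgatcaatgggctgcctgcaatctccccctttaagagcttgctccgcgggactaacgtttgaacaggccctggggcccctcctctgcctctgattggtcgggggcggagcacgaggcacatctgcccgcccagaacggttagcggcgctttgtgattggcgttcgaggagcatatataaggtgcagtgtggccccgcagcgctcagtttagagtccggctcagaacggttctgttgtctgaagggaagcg
Btg2, chr1:134079106-134079405, minus strand: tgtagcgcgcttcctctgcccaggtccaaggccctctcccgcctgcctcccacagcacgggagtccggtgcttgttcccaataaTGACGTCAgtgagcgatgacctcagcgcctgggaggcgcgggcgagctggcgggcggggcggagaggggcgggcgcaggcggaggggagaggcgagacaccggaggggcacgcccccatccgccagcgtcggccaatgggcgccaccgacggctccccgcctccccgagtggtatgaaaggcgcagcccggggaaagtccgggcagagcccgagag
A full CRE stood in the Btg2 window alone among the 12, from base 85 to base 92. Across all 32851 RefSeq windows of the same length, 1.79% held one. The core was found in 7 of the 12 windows, against 20.8% of all windows, but 4 of the 7 belong to Csrnp1 and lie outside the span that the files give for that gene. Counted by gene, 4 of the 7 members (Btg2, Csrnp1, Klf4 and Midn) had it in at least 1 window, against 23.0% of 27025 genes. In the Midn window it began at base 155, and the windows printed for Tiparp and Ier5 held no match. The serum response element core known as the CArG box was in none of the 12 windows and in 1.63% of all windows. The members' windows were rich in G and C, at a median of 68.5% against 52.7% of all windows. These matches describe letters in the windows only, and binding was not measured.

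Before any exposure the 10 genes stood at very different levels. In control naive libraries, per kilobase of exon, Ier5 was highest at 9.68 ± 0.493 CPM per kb (SD, n = 6), followed by Midn at 7.41 ± 0.551, Klf10 at 5.61 ± 0.651, Btg2 at 4.42 ± 0.363 and Tiparp at 3.94 ± 0.436 CPM per kb. Csrnp1 at 1.99 ± 0.344, Ier2 at 1.65 ± 0.801, Trib1 at 1.36 ± 0.0792 and Klf4 at 1.14 ± 0.206 CPM per kb formed a lower tier. Pim1 was lowest, at 0.4 ± 0.125 CPM per kb. From Csrnp1 to Klf4, the ranges of mean ± SD of neighbours in this order overlapped, as did those of Btg2 and Tiparp. Read numbers differed between the genes: Pim1 had 13 to 57 reads per library and Ier2 had 8 to 133, while Midn had 319 to 1702 and Ier5 had 317 to 1989.

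**Figure D1:**
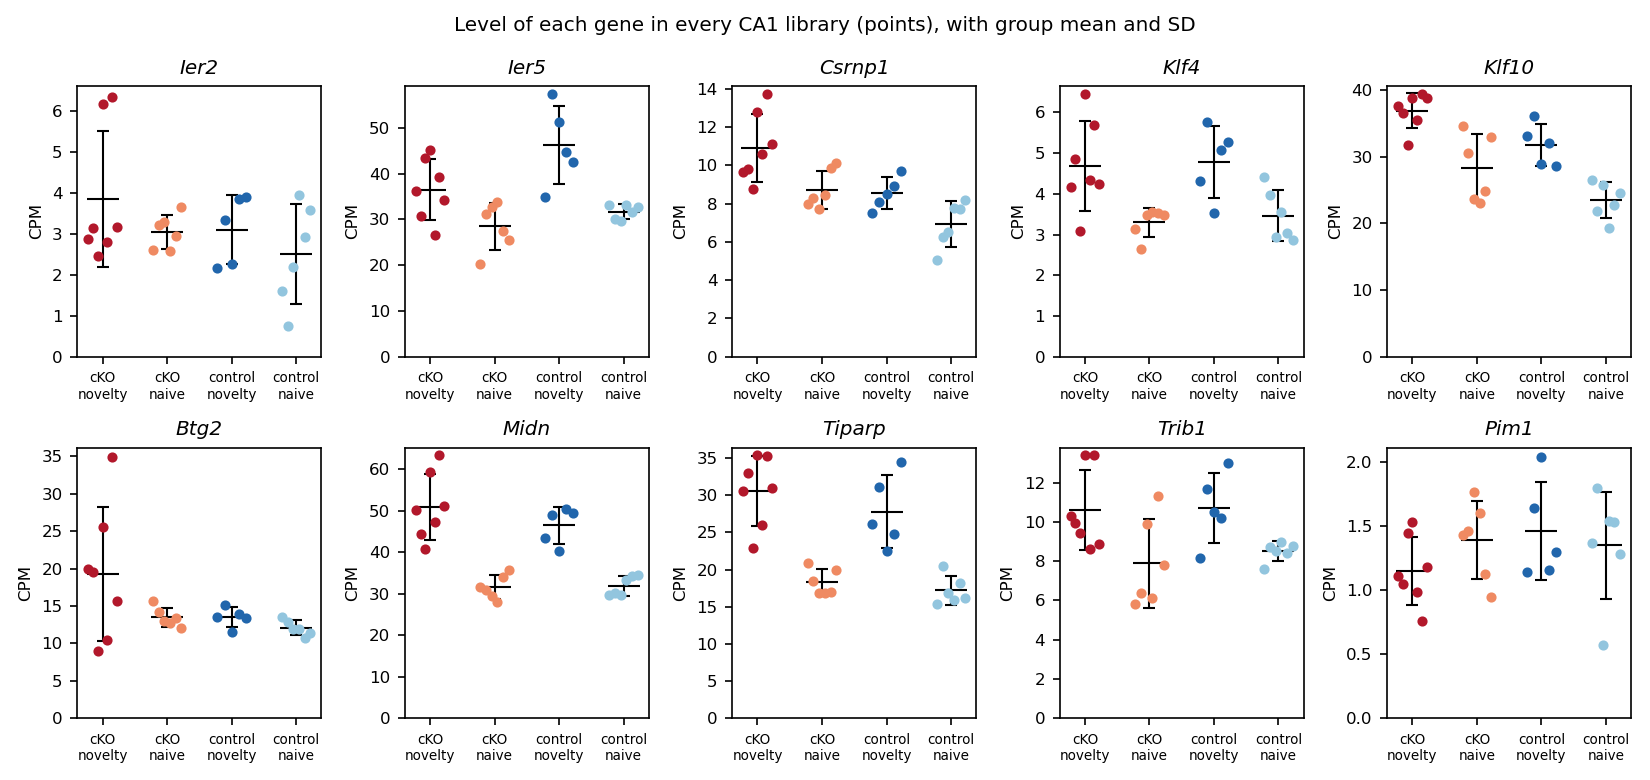
Level of each gene in CPM (vertical axes, each from 0) in every library of the 4 groups; points are libraries, horizontal lines are group means and bars are SD. Midn and Tiparp in novelty libraries lie above all naive libraries of the same genotype, and Btg2 is widely spread only in the cKO novelty group, at 9.01 to 34.9 CPM.

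The first question was which of the genes responded to 15 min of novelty. Midn and Tiparp rose in both genotypes by 1.44-fold to 1.67-fold, Klf10 rose in both by 1.30-fold to 1.34-fold, and Ier5 rose 1.45-fold in controls, while the interaction test of a difference between genotypes did not pass for it. A gene is said to have risen or fallen where the quasi-likelihood F test of edgeR gave an adjusted p (Benjamini-Hochberg, over all genes tested) below 0.05. In cKO mice 3 of the 10 genes rose and 0 fell, against 2.41% of the 16339 genes tested that passed in either direction, 1.92% that rose and 0.484% that fell. In control mice 4 rose and 0 fell, against 1.22% of 16100 genes that passed, 1.02% that rose and 0.199% that fell. All novelty libraries lay above all naive libraries for 2 of the 10 genes in cKO mice and for 4 in control mice, which was so for 1.56% and 1.75% of all genes. At an unadjusted p below 0.05 the count was 7 of 10 in each genotype, against 13.9% of all genes in cKO and 11.0% in control mice. The median log2 fold change of the 10 genes was 0.40 in cKO and 0.37 in control mice, against -0.01 over all genes tested in each. Fold changes lay above 0 for 9 of the 10 in cKO mice, where 46.1% of all genes did, and for 10 of 10 in control mice, where 43.5% did.

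Midn (ENSMUSG00000035621, GRCm38 chromosome 10, 80148272 to 80158368, plus strand), whose product targets other early gene products for degradation, gave the smallest p of the 10 in controls. Its level ran from 40.8 CPM through a median of 50.1 to 63.4 CPM in cKO novelty libraries, against 28.1, 31.1 and 35.7 CPM (lowest, median, highest) in cKO naive libraries. All 7 novelty libraries exceeded the highest naive one. This was a log2 fold change of 0.69 (edgeR adjusted p = 0.000574, SE 0.09). In control novelty libraries Midn had 43.5, 49.0, 40.2, 50.3 and 49.5 CPM, against 29.6 to 34.5 CPM with a median of 31.7 in control naive libraries. These groups did not overlap either, and the log2 fold change was 0.53 (edgeR adjusted p = 0.000663, SE 0.07).

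Tiparp (ENSMUSG00000034640, chromosome 3, 65528410 to 65555145, plus strand), an ADP-ribosyltransferase best known as a target and repressor of the aryl hydrocarbon receptor, moved most. It had 22.9, 31.0 and 35.4 CPM as lowest, median and highest value in cKO novelty libraries, against 16.9, 17.7 and 20.9 CPM in cKO naive libraries. Here too every novelty library lay above every naive one, with a log2 fold change of 0.74 (edgeR adjusted p = 0.000432, SE 0.10). Control novelty libraries had 26.1, 31.1, 22.5, 24.8 and 34.4 CPM, against 15.4, 16.6 and 20.5 CPM as lowest, median and highest value in control naive libraries. The groups did not overlap, with a log2 fold change of 0.69 (edgeR adjusted p = 0.00282, SE 0.10). For both genes, leaving out any 1 library kept the call in each genotype.

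The zinc finger factor Klf10 (ENSMUSG00000037465, chromosome 15, 38294413 to 38300707, minus strand), first described as an early target of TGF-beta, rose in both genotypes with different firmness. In cKO novelty libraries it had 31.7, 37.6 and 39.3 CPM as lowest, median and highest value, against 23.1, 27.7 and 34.6 CPM in cKO naive libraries. Of the 7 novelty libraries, 6 exceeded the highest naive library. The log2 fold change of 0.38 (edgeR adjusted p = 0.0412, SE 0.09) lost its call when any of 10 of the 13 libraries was left out, with adjusted p at most 0.0870. These were cKO novelty libraries 1, 2, 4, 5, 6 and 7 and cKO naive libraries 2, 3, 4 and 5. In control novelty libraries Klf10 had 33.1, 36.1, 28.9, 32.0 and 28.6 CPM, against 19.3, 23.7 and 26.5 CPM as lowest, median and highest value in control naive libraries. All 5 novelty libraries lay above the naive ones, and the log2 fold change was 0.43 (edgeR adjusted p = 0.0191, SE 0.08). Without control novelty library 2 it was 0.38, with an edgeR adjusted p of 0.0712. With library number as a block in the control fit it was 0.44, with an edgeR adjusted p of 0.0647.

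Klf4 (ENSMUSG00000003032, chromosome 4, 55527143 to 55532466, minus strand) is the Krüppel-like factor best known for reprogramming cells to pluripotency. It had 3.09, 4.35 and 6.46 CPM as lowest, median and highest value in cKO novelty libraries, against 2.65, 3.48 and 3.55 CPM in cKO naive libraries. Although 6 of the 7 novelty libraries lay above all naive ones, the log2 fold change of 0.51 (SE 0.14) did not pass the test (edgeR adjusted p = 0.0798). It passed at 0.59 without cKO novelty library 3, with an edgeR adjusted p of 0.0218. This was 1 of 13 fits that left out 1 library, with edgeR adjusted p up to 0.195. In controls Klf4 had 4.31, 5.76, 3.53, 5.08 and 5.28 CPM after novelty, against 2.87, 3.30 and 4.41 CPM as lowest, median and highest value in naive libraries, a log2 fold change of 0.48 (edgeR adjusted p = 0.176, SE 0.15).

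Csrnp1 (ENSMUSG00000032515, chromosome 9, 119971166 to 119977250, minus strand) encodes a nuclear cysteine- and serine-rich protein with transcriptional activity. It measured 8.76, 10.6 and 13.7 CPM (lowest, median, highest) in cKO novelty and 7.70, 8.38 and 10.1 CPM in cKO naive libraries. In control libraries it had 7.53, 8.07, 8.49, 8.93 and 9.72 CPM after novelty, against 5.03, 7.13 and 8.17 CPM as lowest, median and highest naive value. The ranges overlapped in both genotypes, and neither log2 fold change passed, at 0.32 (edgeR adjusted p = 0.123, SE 0.10) in cKO and 0.28 (edgeR adjusted p = 0.372, SE 0.12) in control mice.

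Ier5 (ENSMUSG00000056708, chromosome 1, 155096367 to 155099636, minus strand) encodes a nuclear protein known to act with the heat shock factor HSF1. In cKO novelty libraries it had 26.7, 36.2 and 45.1 CPM as lowest, median and highest value, against 20.2, 29.4 and 33.8 CPM in cKO naive libraries. These overlapped, with 5 of 7 novelty libraries above the highest naive one, and the log2 fold change of 0.36 (edgeR adjusted p = 0.241, SE 0.14) did not pass. Control novelty libraries had 35.0, 57.3, 51.3, 44.7 and 42.6 CPM, against 29.6, 32.2 and 33.2 CPM as lowest, median and highest value in control naive libraries. In controls the groups did not overlap, and Ier5 rose 1.45-fold (log2 0.53, edgeR adjusted p = 0.0112, SE 0.10), a call kept without any 1 library. With library number as a block in the fit it was 0.52 and did not pass (edgeR adjusted p = 0.0978). The naive controls were even for this gene, with a coefficient of variation of 5.10%, against 18.1 to 18.4% in the other 3 groups.

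Its relative Ier2 (ENSMUSG00000053560, chromosome 8, 84661331 to 84662852, minus strand), a small nuclear protein induced by growth factors, was counted from few reads. It had 2.46, 3.14 and 6.34 CPM as lowest, median and highest value in cKO novelty and 2.58, 3.08 and 3.65 CPM in cKO naive libraries. Only cKO novelty libraries 4 and 6, at 6.18 and 6.34 CPM, lay above the naive range. Control novelty libraries had 2.18, 3.34, 2.26, 3.85 and 3.91 CPM, all within the control naive range of 0.757 to 3.95 CPM (median 2.56). Neither log2 fold change passed, at 0.35 (edgeR adjusted p = 0.537, SE 0.22) in cKO and 0.23 (edgeR adjusted p = 0.882, SE 0.29) in control mice.

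Btg2 (ENSMUSG00000020423, chromosome 1, 134075170 to 134079120, minus strand), an antiproliferative adaptor of the CCR4-NOT deadenylase, set 1 group apart by its spread. In cKO novelty libraries 1 to 7 its level was 20.0, 19.6, 9.01, 25.6, 10.5, 34.9 and 15.7 CPM, against 12.1, 13.2 and 15.7 CPM as lowest, median and highest value in cKO naive libraries. Thus 5 of the 7 lay above the whole naive range, library 7 by less than the digits shown, and 2, libraries 3 and 5, lay below it. The coefficient of variation was 46.3% in this group and 8.22 to 9.91% in the other 3. Its log2 fold change of 0.52 (edgeR adjusted p = 0.414, SE 0.27) did not pass. It was 0.31 without library 6 and 0.44 without library 4. In controls Btg2 had 13.6, 15.2, 11.5, 14.0 and 13.4 CPM after novelty, against 10.8, 12 and 13.6 CPM as lowest, median and highest naive value, with a log2 fold change of 0.16 (edgeR adjusted p = 0.538, SE 0.08).

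The 2 genes of kinase families did not pass in either genotype. Trib1 (ENSMUSG00000032501, chromosome 15, 59648350 to 59656550, plus strand) had 8.61, 9.93 and 13.4 CPM as lowest, median and highest value in cKO novelty and 5.84, 7.10 and 11.3 CPM in cKO naive libraries (log2 0.42, edgeR adjusted p = 0.254, SE 0.17). Control novelty libraries had 8.18, 11.7, 10.5, 10.2 and 13.0 CPM, against 7.58, 8.62 and 9.00 CPM as lowest, median and highest naive value (log2 0.32, edgeR adjusted p = 0.181, SE 0.10). In controls 4 of the 5 novelty libraries exceeded all naive ones, and without the exception, control novelty library 1, the log2 fold change was 0.42 with an edgeR adjusted p of 0.0299. Trib1 passed in 1 of the 11 control fits that left out 1 library, with edgeR adjusted p up to 0.414. Pim1 (ENSMUSG00000024014, chromosome 17, 29490812 to 29495445, plus strand) was the only member below 0 in cKO mice, with 0.758, 1.11 and 1.53 CPM as lowest, median and highest value after novelty and 0.943, 1.44 and 1.77 CPM in naive libraries. Its log2 fold change was -0.26 (edgeR adjusted p = 0.595, SE 0.19) in cKO and 0.16 (edgeR adjusted p = 0.917, SE 0.25) in control mice, where novelty libraries had 1.14, 1.64, 2.04, 1.16 and 1.30 CPM and naive libraries 0.570 to 1.80 CPM. Pim1 had 13 to 57 reads per library, and intervals of 2 SE ran from -0.64 to 0.12 in cKO and from -0.34 to 0.66 in control mice.

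**Figure D2:**
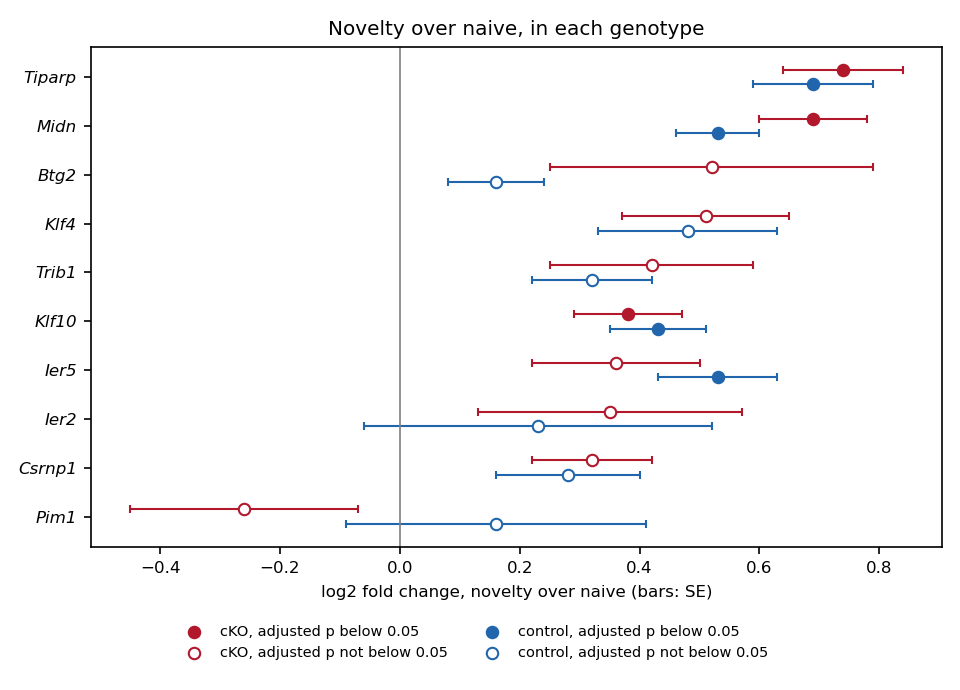
The log2 fold change of novelty over naive (horizontal axis) for each gene in cKO mice (red, upper of each pair) and control mice (blue, lower); bars are SE and filled points have an edgeR adjusted p below 0.05. Tiparp lies farthest right in both genotypes, and Pim1 in cKO mice is the only point left of 0, at -0.26.

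Averaging the novelty effect over genotypes in a fit of all 24 libraries brought more members past the test. Of the 10 genes, 7 rose and 0 fell, against 6.55% of 16744 genes that passed in either direction, 4.43% that rose and 2.13% that fell. Tiparp rose by 0.72 on the log2 scale (SE 0.08), Midn by 0.61 (SE 0.06), Klf4 by 0.49 (SE 0.11), Ier5 by 0.45 (SE 0.09), Klf10 by 0.41 (SE 0.07), Trib1 by 0.37 (SE 0.11) and Csrnp1 by 0.30 (SE 0.08). The edgeR adjusted p was 3.06e-07 for Tiparp, 1.06e-07 for Midn, 0.000202 for Klf10, 0.00273 for Ier5, 0.00366 for Klf4, 0.0159 for Csrnp1 and 0.0294 for Trib1. Btg2 (0.34, edgeR adjusted p = 0.243, SE 0.15), Ier2 (0.29, edgeR adjusted p = 0.489, SE 0.19) and Pim1 (-0.05, edgeR adjusted p = 0.931, SE 0.16) did not pass. Trib1 lost its call without control naive library 1 (0.36), control novelty library 2 (0.36) or 5 (0.34), or cKO naive library 2 or 4 (0.35 each), with edgeR adjusted p up to 0.0670. The other 6 kept theirs without any 1 library.

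Library numbers in the titles divide each group into libraries numbered 1 to 3 and libraries numbered 4 and above, and the labels do not call these parts batches. Within libraries 1 to 3 the averaged novelty effect was 0.61 for Tiparp and 0.56 for Midn, and within libraries 4 and above it was 0.83 and 0.66, all with edgeR adjusted p below 0.05. Klf10 measured 0.32 and 0.47 in these parts, Ier5 0.51 and 0.38, Klf4 0.34 and 0.63, Trib1 0.36 and 0.40, and Csrnp1 0.33 and 0.29. The direction was the same in both parts for each of these 7 genes. In the lower-numbered part 2 of the 10 passed, where 206 genes passed in all, and in the higher-numbered part 4 passed, where 369 genes did. In the fit of all 24 libraries these counts were 7 and 1097. The parts hold fewer libraries and may differ in other ways, and why fewer genes passed was not tested.

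The second question was whether loss of Kat2a changed these genes. In naive mice 0 of the 10 passed in edgeR, against 0.801% of 16360 genes, with 2 at an unadjusted p below 0.05 (13.6% of all genes) and 0 by DESeq2 (2.91% of 15680 genes). After novelty 0 of the 10 passed in edgeR, against 4.53% of 16188 genes, with 3 at an unadjusted p below 0.05 (20.7% of all genes) and 2 by DESeq2 (7.19% of 16062 genes). Averaged over exposures, Csrnp1 and Klf10 were higher in cKO mice and 0 were lower. Of all 16744 genes, 5.72% were higher and 6.32% lower in this test, and a pair among 10 rests on few genes. The median log2 fold change of the 10 genes was 0.09 in naive mice, 0.14 after novelty and 0.09 in the average, against 0.00, 0.01 and 0.01 over all genes.

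Csrnp1 had the steadiest difference. The group mean was 10.9 ± 1.78 CPM (SD, n = 7) in cKO novelty against 8.55 ± 0.836 CPM (n = 5) in control novelty libraries, and 8.72 ± 0.984 CPM (n = 6) in cKO naive against 6.92 ± 1.20 CPM (n = 6) in control naive libraries. Of the cKO libraries, 5 of 7 after novelty and 4 of 6 naive lay above the highest control library. In log2 terms the genotypes differed by 0.37 (edgeR adjusted p = 0.0584, SE 0.11) after novelty, 0.33 (edgeR adjusted p = 0.191, SE 0.11) in naive mice and 0.35 (edgeR adjusted p = 0.00451, SE 0.08) in the average. The averaged effect was 0.33 within libraries 1 to 3 and 0.31 within libraries 4 and above.

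Klf10 followed, at 36.9 ± 2.66 CPM in cKO novelty against 31.7 ± 3.14 CPM in control novelty libraries, and 28.3 ± 5.05 CPM in cKO naive against 23.5 ± 2.72 CPM in control naive libraries (SD, same n). The log2 fold change was 0.22 (edgeR adjusted p = 0.0650, SE 0.07) after novelty, 0.27 (edgeR adjusted p = 0.295, SE 0.11) in naive mice and 0.24 (edgeR adjusted p = 0.0179, SE 0.07) in the average. Its averaged effect was 0.18 within libraries 1 to 3 and 0.31 within libraries 4 and above. Without cKO novelty library 3 both genes passed after novelty, Csrnp1 at 0.41 (edgeR adjusted p = 0.0262) and Klf10 at 0.25 (edgeR adjusted p = 0.0244), and Klf10 also passed without control novelty library 2, at 0.27 (edgeR adjusted p = 0.0437). Of 12 fits that left out 1 library, Csrnp1 passed in 1 and Klf10 in 2, with edgeR adjusted p up to 0.157 and 0.167.

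Ier5 pointed the other way, with 36.5 ± 6.61 CPM in cKO novelty against 46.2 ± 8.50 CPM in control novelty libraries, and 28.5 ± 5.16 CPM in cKO naive against 31.7 ± 1.62 CPM in control naive libraries. The averaged log2 fold change of -0.25 (edgeR adjusted p = 0.0813, SE 0.09) did not pass. It passed in DESeq2, at -0.25 (DESeq2 adjusted p = 0.0485). In edgeR it passed at -0.29 without control novelty library 1 (edgeR adjusted p = 0.0373) and at -0.28 without cKO novelty library 4 (edgeR adjusted p = 0.0478). These were 2 of 24 fits that left out 1 library, with edgeR adjusted p up to 0.181. Btg2 averaged 0.34 (edgeR adjusted p = 0.165, SE 0.15), and 0.40 without cKO novelty library 3 (edgeR adjusted p = 0.0444). Btg2 passed in 1 of the 24 fits that left out 1 library, with edgeR adjusted p up to 0.252. The remaining 6 genes had averaged log2 fold changes from -0.14 for Pim1 to 0.28 for Ier2. Intervals of 2 SE around the averaged effect were narrow for Midn, at -0.06 to 0.18, and Tiparp, at -0.03 to 0.27, and wide for Ier2, at -0.11 to 0.67, and Pim1, at -0.45 to 0.18.

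Transcripts of marker genes of several cell types also differed between the genotypes. Of 7 oligodendrocyte markers 5 were lower in cKO libraries in the average, as were 3 of 6 interneuron and 2 of 8 endothelial markers, and 2 of 8 CA1 pyramidal markers. The dentate granule, the CA3 and CA2, and the mural lists, of 6 markers each, had 1 lower marker each. Of the 7 astrocyte and 8 microglial markers 0 passed in this test, where 6.32% of all 16744 genes were lower. In the single genotype comparisons 0 of the 7 oligodendrocyte markers passed. In naive mice 0 markers of any list passed. After novelty 2 of 8 CA1 pyramidal, 2 of 8 endothelial, 1 of 6 interneuron and 1 of 6 CA3 and CA2 markers were lower, where 4.53% of all genes passed in either direction. Summed oligodendrocyte markers ranged from 3090 to 6000 CPM in cKO novelty and 4060 to 5090 CPM in cKO naive, against 4510 to 5530 CPM in control novelty and 4790 to 5120 CPM in control naive libraries. Summed endothelial markers ranged from 196 to 259 CPM in cKO novelty and 194 to 246 CPM in cKO naive, against 240 to 283 CPM in control novelty and 227 to 272 CPM in control naive libraries. Of the marker lists, none had a member that passed in either single novelty comparison. In the averaged novelty effect, 4.43% of all genes rose and 2.13% fell. There 2 of 8 endothelial markers were higher and 1 lower, and 1 of 8 microglial markers was higher and 1 lower. Also lower were 1 of 7 oligodendrocyte and 1 of 6 mural cell markers. The part of cell content in the genotype differences of Csrnp1 and Klf10 and in the averaged novelty effects was not tested.

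**Figure D3:**
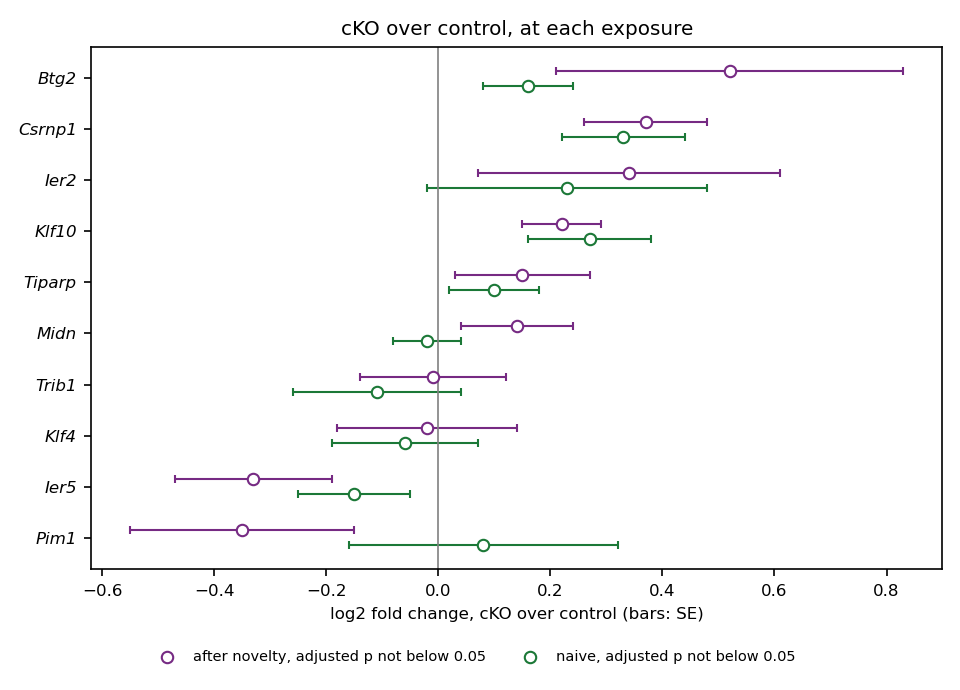
The log2 fold change of cKO over control (horizontal axis) for each gene after novelty (purple, upper of each pair) and in naive mice (green, lower); bars are SE, and open points mark an edgeR adjusted p that is not below 0.05. Csrnp1 and Klf10 lie right of 0 at both exposures, at 0.37 and 0.33 and at 0.22 and 0.27, and Ier5 lies left of 0 at both.

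Whether the novelty response itself differed between genotypes was asked with the genotype by novelty interaction. In edgeR 0 of the 10 genes passed, 0 had an unadjusted p below 0.05 and DESeq2 called 0. Of all 16744 genes, 0.0% passed in edgeR and 4.11% had an unadjusted p below 0.05, and DESeq2 called 0.0% of 27575 genes. Interaction values ran from -0.42 (SE 0.32) for Pim1 to 0.36 (SE 0.31) for Btg2, with a median of 0.04 against 0.00 over all genes. For Ier5, which passed in controls alone, the interaction was -0.18 (edgeR adjusted p = 1, SE 0.18), so a difference between genotypes was not shown. Intervals of 2 SE were -0.26 to 0.34 for Tiparp, -0.08 to 0.40 for Midn and -0.32 to 0.22 for Klf10, which do not leave out a response that differs by up to 0.34, 0.40 and 0.32 on the log2 scale.

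Most pairs of the 10 genes, though not all, had levels that deviated in the same direction within a group. As deviations from group means, they correlated across the 24 libraries with a median Pearson r of 0.28 over 45 pairs of genes, of which 33 lay above 0. Csrnp1 and Midn were closest, at 0.80, followed by Ier2 with Csrnp1 at 0.73 and Ier2 with Midn at 0.72. Btg2 had 0.66 with Klf4, 0.66 with Tiparp and 0.62 with Midn. Pim1 was below 0 with every member but Ier5, from -0.01 with Klf4 to -0.41 with Klf10, and Ier5 with Klf10 was at -0.31. All points of a library share its depth and its dissection. The same values were not computed over pairs of all genes, so they are a description and not a trait shown to be particular to the members. The 24 libraries are pooled here, and the averaged deviations were widest in the cKO novelty group, at -0.28 to 0.37 on the log2 scale.

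Averaged over the 10 genes, the libraries' deviations from their group mean ran from -0.28 to 0.37 on the log2 scale in cKO novelty and -0.06 to 0.05 in cKO naive, against -0.19 to 0.16 in control novelty and -0.14 to 0.11 in control naive libraries. In the cKO novelty group, library 4 was among the top 2 of the 7 for all 10 genes and library 6 for 8 of 10, and each was highest for 5. Averaged over the genes, they stood 0.37 and 0.30 above their group mean on the log2 scale, while library 3, lowest for 7 genes, stood 0.28 below and library 5 stood 0.24 below. The classic early genes placed the same libraries in the same way: library 4 stood 0.39 and library 6 stood 0.48 above the group mean, library 3 stood 0.41 below and library 5 stood 0.33 below. Arc had 163, 130, 62.1, 249, 86.4, 296 and 127 CPM in cKO novelty libraries 1 to 7, highest in 6 and 4 and lowest in 3 and 5. Junb had 58.1 CPM in library 4 and 68.4 CPM in library 6, against 15.2 to 38.2 CPM in the others. Summed CA1 pyramidal markers were 5180 CPM in library 4, the lowest of its group, and 6000 CPM in library 6, the highest. Library 4 also had the highest oligodendrocyte sum of its group, at 6000 CPM against 3950 CPM in library 6, and the highest blood sum, at 10.8 CPM. Library 6 had the lowest interneuron (856 CPM) and mural (145 CPM) sums and the highest microglial sum (462 CPM). The part of cell content in the standing of these libraries was not tested. Without library 4 or library 6, novelty in cKO mice raised Midn by 0.65 or 0.63 and Tiparp by 0.70 in both cases, the larger edgeR adjusted p being 0.00125 for Midn and 0.00120 for Tiparp.

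**Figure D4:**
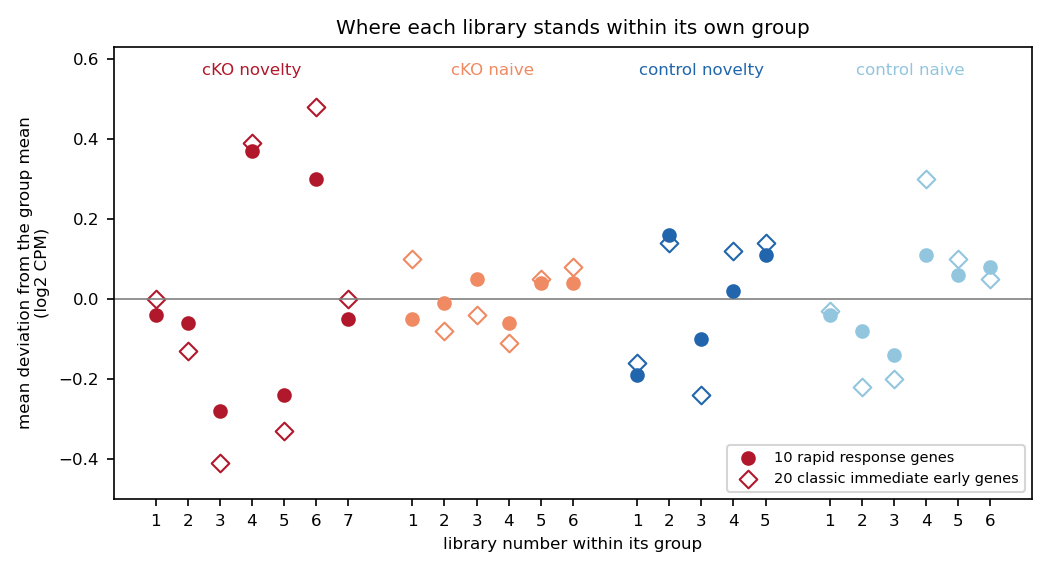
Mean deviation of each library from its own group mean in log2 CPM (vertical axis), over the 10 rapid response genes (filled circles) and 20 classic immediate early genes (open diamonds), by library number within group (horizontal axis). Both sets put cKO novelty libraries 4 and 6 highest and 3 and 5 lowest.

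The genes whose levels most resembled the members' mean were Arc, Stk40, Sik1, Per1 and Nr4a1. Among 13233 other genes with a mean of at least 50 reads, these had the highest correlation over the 24 libraries, at r = 0.91 for Nr4a1 and r = 0.92 for each of the other 4. Within groups the values were 0.85 for Arc, 0.75 for Stk40, 0.80 for Sik1, 0.78 for Per1 and 0.81 for Nr4a1. Arc encodes a cytoskeleton-associated protein of synapses, Stk40 a serine/threonine kinase-like protein, Sik1 a salt-inducible kinase, Per1 a circadian clock component and Nr4a1 an orphan nuclear receptor. These correlations are a description, over libraries that share the 4 groups.

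Against the classic immediate early genes the members moved by less. Of 20 classic genes tested, 15 rose in cKO mice and 14 in control mice, and 0 fell in either. Their median log2 fold change was 1.24 in cKO and 1.02 in control mice, against the members' 0.40 and 0.37. The largest shifts belonged to transcription factors. Egr2 averaged 14.3 ± 4.29 CPM in cKO novelty and 0.590 ± 0.232 CPM in cKO naive libraries (SD), and 12.6 ± 5.07 CPM in control novelty and 0.671 ± 0.340 CPM in control naive libraries. Averaged over genotypes, Egr2 rose by 4.39 on the log2 scale (SE 0.23), Fosb by 2.63 (SE 0.11), Egr1 by 1.80 (SE 0.09) and the synaptic scaffold gene Homer1 by 1.16 (SE 0.05), all with edgeR adjusted p of at most 6.70e-12. Tiparp, at 0.72, was the member that came nearest to these 4. Of the genotype tests on the classic list, Fosl2 was lower in cKO mice when naive (log2 -0.51, edgeR adjusted p = 0.0479, SE 0.11) and in the average, and no classic gene was higher.

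Relatives of the members by family moved in both directions after novelty. The list held 26 genes of the Ier, Btg and Tob, Klf, Parp, Csrnp, Trib and Pim families, all of them tested. Novelty raised 1 and lowered 1 in cKO mice, which is 7.69% of the list against 2.41% of all genes, and raised 5 and lowered 2 in control mice, which is 26.9% against 1.22%. Averaged over genotypes 5 rose and 3 fell, 30.8% of the list against 6.55% of all genes, with a list median of 0.05.

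Among the Krüppel-like factors, Klf2 was raised in controls, at 3.25 ± 0.320 CPM after novelty against 1.86 ± 0.293 CPM in naive libraries (SD, n = 5 and 6, log2 0.80, edgeR adjusted p = 0.00625, SE 0.13). In cKO mice Klf2 had a log2 fold change of 0.58 (edgeR adjusted p = 0.0926, SE 0.17). Klf15, a factor known for its response to glucocorticoids, rose by 0.50 (edgeR adjusted p = 0.0181, SE 0.11) in cKO and 0.54 (edgeR adjusted p = 0.0155, SE 0.10) in control mice. Klf9, also a glucocorticoid target, rose in controls, at 191 ± 8.39 CPM after novelty against 151 ± 9.97 CPM in naive libraries (log2 0.33, edgeR adjusted p = 0.00302, SE 0.05). In cKO mice Klf9 did not pass, at 0.15 (edgeR adjusted p = 0.225, SE 0.06), and its averaged effect of 0.24 did (edgeR adjusted p = 0.000174, SE 0.04). Klf7, known from axon growth, fell by 0.31 (edgeR adjusted p = 0.0103, SE 0.06) in cKO and by 0.39 (edgeR adjusted p = 0.0116, SE 0.07) in control mice. Klf11 fell in the average alone, by 0.36 (edgeR adjusted p = 0.0143, SE 0.09).

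In the Btg and Tob family, Tob2 and Tob1, both adaptors of the same deadenylase as Btg2, moved in opposite directions. In control mice Tob2 rose by 0.35 (edgeR adjusted p = 0.0396, SE 0.08) and Tob1 fell by 0.29 (edgeR adjusted p = 0.00921, SE 0.05). In cKO mice neither passed, at 0.21 (edgeR adjusted p = 0.36, SE 0.10) for Tob2 and -0.11 (edgeR adjusted p = 0.429, SE 0.06) for Tob1. Averaged over genotypes both passed, at 0.28 (edgeR adjusted p = 0.0076, SE 0.07) and -0.20 (edgeR adjusted p = 0.00108, SE 0.04). The kinase gene Pim3 rose by 0.39 (edgeR adjusted p = 0.0463, SE 0.09) in controls, while Pim1 did not pass. In cKO mice Pim3 did not pass, at 0.21 (edgeR adjusted p = 0.353, SE 0.10), and its averaged effect of 0.30 did (edgeR adjusted p = 0.00674, SE 0.07). In the interaction test 0 of the 26 relatives passed, so a response to novelty that differs between genotypes was not shown for them. In the genotype tests 0 of the 26 relatives passed in naive mice, against 0.801% of all genes. After novelty 0 were higher and 2 lower, 7.69% of the list against 4.53% of all genes. In the genotype average 1 was higher and 3 lower, where 5.72% of all genes were higher and 6.32% lower. These counts rest on few genes. Klf9 was lower by 0.26 (edgeR adjusted p = 0.00527, SE 0.05) and Klf13 by 0.20 (edgeR adjusted p = 0.00841, SE 0.04) in cKO mice after novelty. In the genotype average Btg1 also fell, by 0.16 (edgeR adjusted p = 0.00525, SE 0.04), and Zc3hav1, an antiviral RNA-binding relative of Tiparp, was higher by 0.30 (edgeR adjusted p = 0.0229, SE 0.08).

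The authors' deposited tables of DESeq2 comparisons named nearly the same members. In the authors' deposited table for novelty in cKO mice, 4 of the 10 passed (Tiparp, Midn, Klf10 and Klf4), against 4.41% of its genes. For novelty in control mice the same 4 genes passed in the authors' deposited table as here, Midn, Tiparp, Ier5 and Klf10, against 2.79% of its genes. For genotype in naive mice 0 of the 10 passed in the authors' deposited table, against 3.18% of its genes. For genotype after novelty 2 passed, against 8.17% of its genes. In the authors' deposited table Csrnp1 had a log2 fold change of 0.35 (DESeq2 adjusted p = 0.0252) and Klf10 had 0.21 (DESeq2 adjusted p = 0.0372). Both genes missed the threshold in edgeR.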

How the data were processed

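The authors deposited raw read counts per Ensembl gene for each of 24 libraries, per the file headers and values. Per the labels' protocols, DNase-treated total RNA (TRI reagent) was made into TruSeq libraries that do not mark strand. The protocols name both paired-end and single-end kits without saying which library had which. Sense and antisense reads over a locus therefore cannot be told apart. The tools named, without roles, were STAR 2.3.0, DESeq2 and HTSeq, with the build GRCm38.p2, per the submitters' processing notes. The annotation release is not given in the sources used here. The authors also deposited 4 comparison tables with a mean normalised signal, a log2 fold change, its SE, a p-value and an adjusted p-value per gene, per the file headers. They were used for symbols, coordinates and a comparison of calls. Summary entries of the count files were left out of library sizes: per library, 7.58 to 10.36% of reads fell outside genes, 1.06 to 1.18% were ambiguous and 14.82 to 17.97% mapped to several places.

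In R 4.3.3, edgeR 4.0.16 tested the counts by quasi-likelihood F (robust fit, TMM, filterByExpr at a minimum count of 10, Benjamini-Hochberg over all genes tested, threshold 0.05). Pairwise comparisons used their own groups, and averages and the interaction used all 24 libraries. The comparisons share groups, so their values are not independent of each other. CPM values use TMM library sizes, log2 CPM a prior count of 2, exon lengths come from GENCODE M21, and SE is the log2 fold change divided by the square root of F. The fit was tested on simulated data. Between replicates of a group, counts differed by a chi-square of 3.54 to 22.1 per gene over 61 pairs (the chi-square divided by the genes compared), so no pair within a group agreed within sampling noise. Same-numbered libraries were not treated as pairs in the main fits, since in each comparison only 1 matched best with its own number. Whether they share a cage, a day or a litter was not tested. Alternatives were other scalings, no filter, DESeq2 1.42.0, the replicate block, library part, and each library left out. The members, the lists and the division by library number were chosen with earlier results of these data known. All 10 members are given in each comparison, with Kat2a as the check of the labels, the 4 classic early genes with the smallest p for averaged novelty, each family relative that passed a test, and the 5 genes most like the members' mean.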

Additional observations from a re-analysis of the deposited data

How the results depend on the processing

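For the members that passed a test, 427 values were recomputed under other settings or without 1 library: 388 kept their direction and their call, 39 lost the call and 0 changed direction. For members that had not passed, 1254 of 1333 values stayed as they were, 13 gained a call and 66 changed direction. Not all of these were small: the interaction of Ier2 went from 0.11 to -0.78 in libraries 1 to 3. That of Pim1 went from -0.42 to 0.11 in libraries 4 and above. Pim1 and Ier2 had the fewest reads. Where no cause is named, the cause was not tested.

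Counts of genes passed in the whole table moved as follows. For novelty in cKO mice, 393 genes became 639 with DESeq2, 207 with the replicate block, 15 in libraries 1 to 3 and 70 in libraries 4 and above, and 238 to 452 without 1 library, lowest without cKO naive library 2. For novelty in control mice, 196 became 373 with DESeq2, 97 with the replicate block, 25 in libraries 1 to 3 and 281 in libraries 4 and above, and 113 to 255 without 1 library, lowest without control novelty library 2 (116 without library 5 and 128 without control naive library 6). For genotype in naive mice, 131 became 457 with DESeq2, 70 with the replicate block, 3 in libraries 1 to 3 and 5 in libraries 4 and above, and 40 to 166 without 1 library (40, 55 and 80 without control naive libraries 6, 5 and 4, and 58, 47, 80 and 59 without cKO naive libraries 1, 2, 5 and 6). For genotype after novelty, 733 became 1155 with DESeq2, 398 with the replicate block, 17 and 121 in the 2 parts, and 324 to 1025 without 1 library (324, 473 and 364 without control novelty libraries 2, 3 and 5, 430 and 484 without cKO novelty libraries 5 and 7). For averaged novelty the parts gave 206 and 369 genes, and for averaged genotype 402 and 405.

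Upper-quartile scaling moved the share of calls that were higher from 79.9% (TMM) to 67.0% for novelty in cKO mice, from 67.5 to 53.9% for averaged novelty and from 47.5 to 58.5% for averaged genotype; it reversed no member.

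Members that passed numbered 0 for novelty in cKO mice in libraries 1 to 3. For novelty in control mice there were 2 with the replicate block and 1 in libraries 1 to 3. For genotype after novelty there were 1 with no filter, 2 with DESeq2 and 0 to 2 without 1 library (2 without cKO novelty library 3, 1 without control novelty library 2). For averaged novelty there were 2 and 4 in the 2 parts, and for averaged genotype 1 and 0. Klf10 in cKO mice missed the threshold with upper-quartile scaling (edgeR adjusted p = 0.0575), no filter (0.0808) and part as a covariate (0.0562).

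Same-numbered libraries correlated, as deviations from group means, at -0.218 to 0.308 for novelty in cKO and -0.163 to 0.15 in control mice, and at -0.221 to 0.481 and -0.128 to 0.399 for genotype in naive and novelty mice, and 1 pair in each comparison matched best with its own number. With the replicate block, Ier5 and Klf10 in control mice had edgeR adjusted p of 0.0978 and 0.0647, with 0.52 and 0.44 as log2 fold changes.

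Direction changed only for members that had not passed. For novelty, Ier2 in cKO mice was -0.10 in libraries 1 to 3, Pim1 in controls was -0.23 in libraries 4 and above (-0.02 to 0.25 without 1 library), and averaged Pim1 was 0.05 in libraries 1 to 3. For genotype in naive mice, libraries 4 and above gave Ier2 -0.19, Klf4 0.16 and Pim1 -0.25, and libraries 1 to 3 gave Midn 0.03; leaving out 1 library gave Klf4 -0.10 to 0.03, Midn -0.05 to 0.01 and Pim1 -0.11 to 0.17. After novelty, Klf4 was 0.00 in libraries 4 and above (-0.12 to 0.06 without 1 library) and Trib1 -0.10 to 0.06 without 1 library. In the genotype average, Klf4 was 0.08 in libraries 4 and above (-0.09 to 0.00 without 1 library) and Pim1 0.01 in libraries 1 to 3. For the interaction, Ier2 was -0.10 with the replicate block and with part as a covariate and -0.78 in libraries 1 to 3 (-0.08 to 0.25 without 1 library), Csrnp1 -0.05, -0.04 and -0.18 (-0.03 to 0.11), and Klf4 0.00 with the covariate and -0.15 in libraries 4 and above (-0.07 to 0.12). Klf10 was 0.04 (-0.10 to 0.02), Trib1 -0.03 and Pim1 0.11 in libraries 4 and above, and Tiparp -0.02 to 0.13 without 1 library.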
